A study of Mus musculus with 7 samples.

Results

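Long non-coding RNAs (lncRNAs) that stay in the nucleus and lncRNAs that carry small nucleolar RNAs (snoRNAs) in their introns were examined in LT-HSCs, the long-term stem cells of the marrow, which renew themselves and keep up blood formation. The 8 genes were chosen by symbol, as Malat1, Neat1, Gas5, Snhg1, Snhg5, Snhg6, Snhg8 and Snhg12, and all 8 were found among the 53458 genes of the deposited transcript tables. RNA sequencing had been done on LT-HSCs of aged C57/BL6 mice, 3 heterozygous for Srp72 (Srp72+/-) and 4 wild type (WT, Srp72+/+), with 1 library per mouse. The cells had been sorted from bone marrow by their surface antigens, as positive for cKit, Sca1 and CD150 and negative for CD48, Flt3, Gr1, Mac1, CD3, B220 and Ter119. The age of the mice and the altered part of Srp72 are not stated in the labels. The comparison between the genotypes asks how the loss of 1 allele of Srp72, a subunit gene of the signal recognition particle, bears on these RNAs.

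Malat1 and Neat1 are neighbouring nuclear lncRNAs. Malat1 RNA gathers in nuclear speckles, bodies rich in splicing factors, and the long form of Neat1 is the scaffold of paraspeckles, which also hold the proteins SFPQ and NONO. The other 6 genes are snoRNA hosts: the snoRNAs are cut out of their introns and guide the modification of ribosomal and spliceosomal RNA, while the spliced host RNA is in several cases short-lived and removed by nonsense-mediated decay. Several hosts begin with a run of pyrimidines, as genes of ribosomal proteins do. In blood cells Gas5 is known as a transcript that builds up when growth stops.

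The hosts are compact genes that pack snoRNAs between short exons. On GRCm38, Gas5 (ENSMUSG00000053332) lies on the plus strand at chr1:161034422-161038539 and holds 10 annotated snoRNA entries, Snhg1 (ENSMUSG00000108414) on the plus strand at chr19:8723475-8726443 holds 8, and Snhg12 (ENSMUSG00000086290) on the plus strand at chr4:132308623-132311024 holds 5. Snord80 of Gas5 and Snora16a of Snhg12 are each entered 2 times. Snhg5 (ENSMUSG00000097195) lies on the minus strand at chr9:88521050-88522929 and holds 2, Snord50a and Snord50b. Snhg6 (ENSMUSG00000098234), on the minus strand at chr1:9941959-9944118, holds Snord87. Snhg8 (ENSMUSG00000104960), on the minus strand at chr3:123507552-123508404, holds Snora24. Malat1 (ENSMUSG00000092341, chr19:5795690-5802672) and Neat1 (ENSMUSG00000092274, chr19:5824708-5845478) both lie on the minus strand, and their longest transcripts are unspliced and 6983 and 20771 bases long.

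The first bases of the hosts are shown because the start is what hosts and ribosomal protein genes are known to share. Each line gives 10 bases before and 20 bases from a RefSeq start on GRCm38.p6, with capitals for a run of at least 5 C or T that begins with C within 2 bases of the start, read on the strand of the gene.
Gas5 (chr1:161035156-161035185, plus strand, the start inside the gene): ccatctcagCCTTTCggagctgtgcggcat
Snhg8 (chr3:123508317-123508346, minus strand): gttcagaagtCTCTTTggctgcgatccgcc
Snhg12 (chr4:132308668-132308697, plus strand): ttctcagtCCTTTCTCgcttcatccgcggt
Snhg1 (chr19:8723477-8723506, plus strand): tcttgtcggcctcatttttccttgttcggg
Snhg5 (chr9:88522878-88522907, minus strand): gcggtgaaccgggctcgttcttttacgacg
Malat1 (chr19:5802653-5802682, minus strand): ggctctgcgtcaggcattcaggcagcgaga
Such a run stood at 3 of the 7 starts found for 6 of the genes, those of Gas5, Snhg8 and Snhg12. The other Gas5 start held none. Over all 32851 promoters of the table the run was found in 8.96%, and over 75 promoters of ribosomal protein genes in 30.7%. Most promoters of ribosomal protein genes thus did not meet this rule, which depends on the exact annotated start. A start without capitals therefore does not show that the gene lacks such a run. Neat1 and Snhg6 were not matched to this table.

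The snoRNAs that the hosts carry follow a common plan, and 3 are shown with their sequence boxes in capitals. In box C/D snoRNAs the capitals mark the C box (TGATGA) and the D box (CTGA), and in the box H/ACA snoRNA the ACA near the end.
Snord47 in Gas5 (chr1:161038082-161038158, plus strand, GRCm38): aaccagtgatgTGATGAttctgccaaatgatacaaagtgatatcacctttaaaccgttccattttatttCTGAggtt
Snord87 in Snhg6 (chr1:9942463-9942549, minus strand, GRCm38): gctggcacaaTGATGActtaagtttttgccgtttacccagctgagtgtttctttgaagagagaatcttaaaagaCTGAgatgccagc
Snora24 in Snhg8 (chr3:123507937-123508066, minus strand, GRCm38): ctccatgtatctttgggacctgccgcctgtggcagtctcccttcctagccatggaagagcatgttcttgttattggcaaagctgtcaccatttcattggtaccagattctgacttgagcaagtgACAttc
Few reads were given to the snoRNA entries themselves. Of 27 annotated snoRNAs within the 6 hosts, 60 to 137 bases long, 22 received reads, in all between 246 and 346 estimated reads per Srp72+/- library and between 90.8 and 290.5 per WT library. The values below are those counted under the host genes. Some host transcripts contain whole snoRNAs, as Snhg8-202 does Snora24, and reads over such stretches can be counted under either name.

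Before the members, the libraries themselves differed in depth and in cell content. They held 18370936 to 35247472 estimated reads in Srp72+/- and 18054322 to 21826533 in WT, so that 3 reads, taken as the limit that a count of 0 allows, equal between 0.0851 and 0.166 CPM (reads scaled to a common total). Of these reads 28.0% to 33.1% were mitochondrial. The summed level of 12 HSC marker genes lay between 1309 and 2120.2 CPM in Srp72+/- and between 169 and 2616 CPM in WT, where WT 2 alone was below 2000 CPM, and none of the 12 was at 0 in any library. The summed levels of 8 neutrophil genes ranged over 1149 to 12000 CPM in Srp72+/- and 119 to 38801 CPM in WT, and those of 8 erythroid genes over 218 to 5687 and 133 to 7829 CPM. WT 2 held the highest and Srp72+/- 1 the next highest sum of both lists and of the B cell and monocyte lists below, although the sort removes such cells. The sums of 8 B and plasma cell genes ranged over 242 to 4414 and 55.1 to 10604 CPM, and those of 8 monocyte and macrophage genes over 321 to 1885 and 157 to 3859 CPM. For 8 megakaryocyte genes the ranges were 356 to 1277 and 40.5 to 650 CPM, and for 8 T and NK cell genes 28.9 to 89.1 and 22.4 to 195 CPM. Genes at 0 included Cd79a (Srp72+/- 3), Vpreb3 (Srp72+/- 2, Srp72+/- 3 and WT 3), Cd14 (WT 1), Trac (Srp72+/- 3), Cd3g (WT 1) and Gzma (Srp72+/- 3, WT 1, WT 3 and WT 4). Srp72 itself measured 71.9, 45.7 and 109.8 CPM in Srp72+/- 1 to 3 and 99.6, 136.6, 103 and 88.4 CPM in WT 1 to 4, so the groups overlapped and the gene is no clean check of the labels (edgeR, adjusted p = 0.9998).

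Gas5 and Malat1 were by far the most abundant of the 8 RNAs when levels were set per transcript length. In TPM, which scale reads by transcript length and library total, Gas5 measured 535, 807 and 537 in Srp72+/- 1 to 3, against 548, 266, 841 and 558 in WT 1 to 4. Malat1 measured 568, 671 and 283 TPM in Srp72+/- 1 to 3, against 292, 231, 396 and 436 TPM in WT 1 to 4. Gas5 stood above Malat1 in 6 of the 7 libraries, all but Srp72+/- 1, and this pair of neighbours in the order did not differ beyond the spread between libraries. Their order also depends on reads given to short transcripts. In Srp72+/- 1 the 556-base Malat1-202 held 3.42% of Malat1 reads and 42.7% of Malat1 TPM. By reads Malat1 was above Gas5 in every library.

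Below these, the order of the hosts was the same in every library for the next 3 genes. Snhg1, host of the U22 snoRNA (Snord22), came next in all 7 with 138 to 198 TPM in Srp72+/- and 97.1 to 219 TPM in WT. Snhg5, host of the U50 snoRNAs, followed with 70.1 to 97.8 and 59.5 to 110 TPM, and Snhg12, host of Snora44, Snora61 and Snord99, came after it with 52.7 to 76.5 and 20.3 to 99.7 TPM. The last 3 genes changed places. Snhg8 measured 20.8 to 39.7 TPM in Srp72+/- and 15.8 to 80.1 TPM in WT and was above Snhg6 in 6 of 7 libraries. Snhg6 (22.6 to 33.2 and 7.60 to 36.0 TPM) and Neat1 (14.4 to 35.7 and 12.8 to 27.3 TPM) shared the lowest ranks, with Snhg6 the higher in 4 of 7 libraries.

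**Figure D1:**
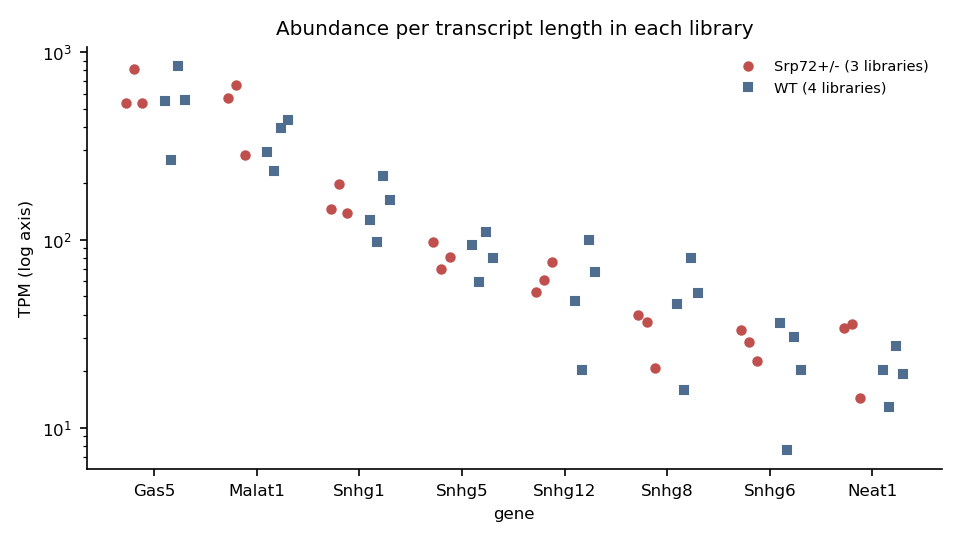
TPM (log axis) of each gene in the 3 Srp72+/- libraries (circles, left of each pair) and the 4 WT libraries (squares, right). Gas5 and Malat1 lie above all other members in every library, and Snhg1, Snhg5 and Snhg12 follow in that order.

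By reads rather than by length the picture was ruled by Malat1. Malat1 received 101999 to 138626 estimated reads in Srp72+/- libraries and 56028 to 102942 in WT libraries, which was 74.9% to 82.6% of the reads of all 8 genes, and it ranked 3 or 4 among lncRNA genes in each library. Together the 8 genes took between 0.386% and 0.850% of the reads in Srp72+/- and between 0.381% and 0.674% in WT. Neat1, whose transcripts are longer, received 8731 to 11809 reads in Srp72+/- and 5446 to 10933 in WT, so that Malat1 had 9.42 to 14.4 times the reads of Neat1 over the 7 libraries. Among lncRNA genes, Gas5 ranked 6 and Neat1 ranked 7 by median reads.

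None of the 8 genes differed in level between the genotypes in the test across all genes. With the quasi-likelihood test of edgeR, 0 of 8 members passed a false discovery rate (FDR) of 0.05, and neither did any other gene (0% of 20314). At an unadjusted p below 0.05 there were 0 members, against 365 genes or 1.8% of all tested. With DESeq2 9 genes passed (0.0447% of those with an adjusted p), and 0 of these were members. Fitted values were higher in Srp72+/- for 5 members and lower for 3, with a median log2 fold change of 0.14 beside -0.01 over all genes, and every adjusted p was 0.9998. This median turned to -0.042 without WT 2 and to -0.063 without WT 2 and Srp72+/- 1, and it was 0.29 with limma on log2(TPM + 1). The CPM ranges of the groups overlapped for all 8 members, while 3.57% of all genes tested had groups that did not overlap. In these bulk libraries, fewer cells of a type and less RNA per cell cannot be told apart.

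**Figure D2:**
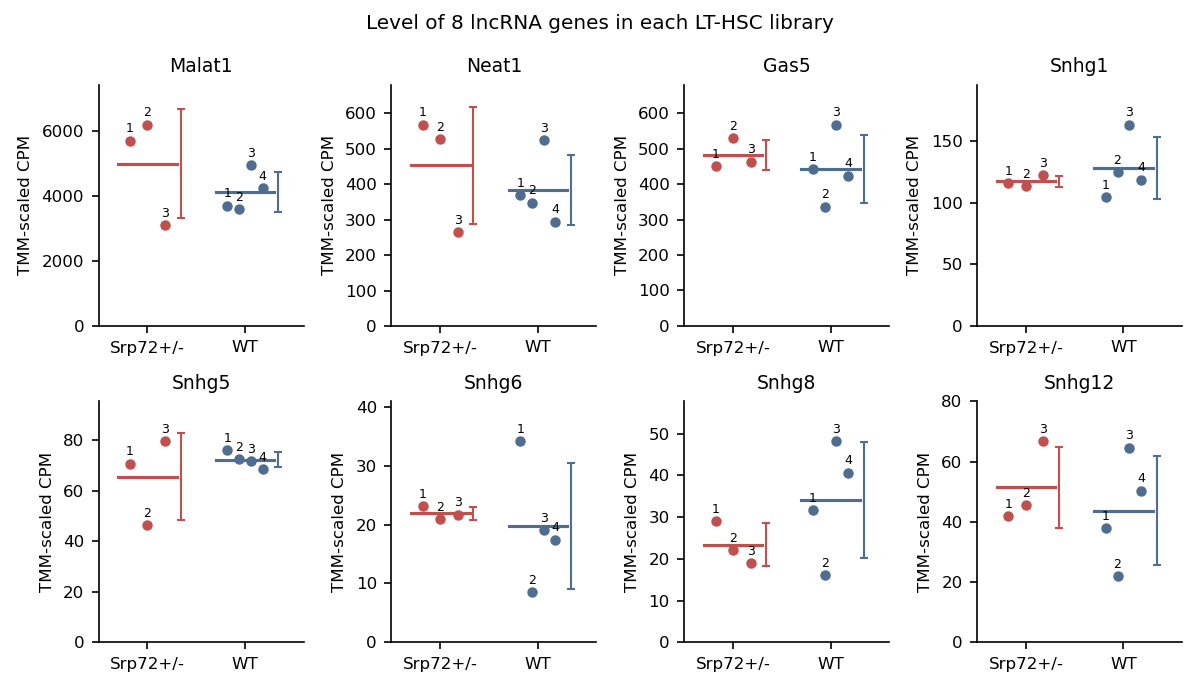
CPM scaled by TMM (a factor that aligns the libraries) for each gene, with Srp72+/- left and WT right. Points are libraries with their replicate number, horizontal lines are means and bars are SD (n = 3 Srp72+/-, n = 4 WT), and the groups overlap in all 8 panels.

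The nuclear pair moved together and set Srp72+/- 1 and 2 against Srp72+/- 3. Malat1 measured 5701, 6186 and 3093 CPM in Srp72+/- 1 to 3, against 3697, 3583, 4937 and 4228 CPM in WT 1 to 4. Thus Srp72+/- 1 and 2 were the highest and Srp72+/- 3 the lowest of all 7 libraries. The means were 4993 ± 1663 CPM (SD, n = 3) in Srp72+/- and 4111 ± 618 CPM (SD, n = 4) in WT, a ratio of 1.21 with a 95% confidence interval of 0.772 to 1.91.

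Neat1 showed the same arrangement. It measured 568, 527 and 265 CPM in Srp72+/- 1 to 3, against 369, 348, 524 and 294 CPM in WT 1 to 4. The 3 libraries highest in Malat1 (Srp72+/- 2, Srp72+/- 1 and WT 3) were also the 3 highest in Neat1, and Srp72+/- 3 was the lowest for both genes. The means were 453 ± 165 CPM (SD, n = 3) in Srp72+/- and 384 ± 98.8 CPM (SD, n = 4) in WT, with a ratio of 1.18 (95% interval 0.708 to 1.97). The log2 fold changes were 0.28 (SE 0.29) for Malat1 and 0.24 (SE 0.32) for Neat1, and they moved with the Srp72+/- library left out. For Malat1 the value was 0.16 without Srp72+/- 1, 0.079 without Srp72+/- 2 and 0.52 without Srp72+/- 3. For Neat1 it was 0.025, 0.098 and 0.50 in the same order, 0.41 without WT 3 and 0.11 without WT 4. None of these passed the threshold.

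The RNA counted as Malat1 is only part of what the locus received. A gene annotated on the opposite strand, Gm37376 (453 bases), is the reverse complement of a stretch of Malat1, and it took 10888, 24799 and 19725 reads in Srp72+/- 1 to 3, against 6643, 5807, 16914 and 8171 reads in WT 1 to 4. That was 9.11% to 16.0% of the summed reads of the locus in Srp72+/- and 7.91% to 14.0% in WT, with the highest shares in Srp72+/- 2, Srp72+/- 3 and WT 3. The labels do not say whether the counting used strand, so these reads cannot be told apart from Malat1 reads. With the genes inside Malat1 summed with it, the log2 fold change was 0.33, still within the spread of the libraries.

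A second embedded entry shows why TPM at this locus is fragile. Gm27694, a misc_RNA of 86 bases whose whole sequence lies inside Malat1 on the same strand, is shown because these letters are counted under either name.
Gm27694 (chr19:5799000-5799085, minus strand, GRCm38): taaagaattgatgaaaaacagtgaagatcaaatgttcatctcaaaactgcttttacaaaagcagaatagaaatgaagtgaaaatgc
It received only 987 to 1886 reads in Srp72+/- and 510 to 1118 in WT, but at its lowest effective length of 4 bases these became 2898 to 10577 TPM in Srp72+/- and 1981 to 5713 TPM in WT, above Malat1 itself. Transcripts of up to 250 bases held 0.551% to 0.932% of all reads and 54.9% to 68.2% of all TPM, so comparisons between libraries rest on CPM. The TPM order of genes within a library also depends on how many reads were given to short transcripts.

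Gas5 and the U22 host Snhg1 were the steadiest hosts together with Snhg5. Gas5 measured 451, 529.6 and 463 CPM in Srp72+/- 1 to 3, against 441, 336, 567 and 424 CPM in WT 1 to 4. All 3 Srp72+/- libraries lay within the WT range, whose ends were WT 2 (lowest) and WT 3 (highest). The means were 481 ± 42.3 CPM (SD, n = 3) in Srp72+/- and 442 ± 95.4 CPM (SD, n = 4) in WT, a ratio of 1.09 (95% interval 0.756 to 1.57).

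Snhg1 measured 116, 113 and 122 CPM in Srp72+/- 1 to 3, against 105, 125, 163 and 119 CPM in WT 1 to 4. The Srp72+/- libraries lay within 10 CPM of each other and inside the WT range. The ratio was 0.917 (95% interval 0.652 to 1.29). Over the 7 libraries the coefficient of variation was 15.3% for Snhg1, 15.5% for Snhg5 and 16.3% for Gas5, and 91.7% to 93.6% of the 11665 tested genes with a mean of at least 5 CPM varied more.

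Snhg5 was even in WT and uneven in Srp72+/-. It measured 70.9, 46.5 and 79.7 CPM in Srp72+/- 1 to 3, against 76.0, 72.6, 71.9 and 68.7 CPM in WT 1 to 4. Srp72+/- 2 was the lowest and Srp72+/- 3 the highest of all 7 libraries, around 4 nearly equal WT values (SD 17.2 CPM, n = 3, against 3.01 CPM, n = 4). The ratio of the group means as fitted was 0.908 (95% interval 0.627 to 1.32), and without Srp72+/- 2 the log2 fold change turned to 0.040.

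The 3 less abundant hosts Snhg6, Snhg8 and Snhg12 varied most, and WT 2, the library low in HSC transcripts, was the lowest library for each of them and for Gas5. Snhg6 measured 23.1, 20.9 and 21.7 CPM in Srp72+/- 1 to 3, against 34.1, 8.51, 18.99 and 17.4 CPM in WT 1 to 4. The 3 Srp72+/- values were nearly equal, while the WT values differed 4.01-fold between WT 1 and WT 2. The ratio was 1.11 with a 95% interval of 0.559 to 2.20, the widest of the 8 members. The log2 fold change of 0.15 (SE 0.43) turned to -0.10 without WT 2.

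Snhg8 was the member with the lowest unadjusted p. It measured 29.0, 22.1 and 19.04 CPM in Srp72+/- 1 to 3, against 31.7, 16.1, 48.2 and 40.6 CPM in WT 1 to 4. All Srp72+/- libraries lay below WT 1, WT 3 and WT 4, and all lay above WT 2. The means were 23.4 ± 5.11 CPM (SD, n = 3) in Srp72+/- and 34.1 ± 13.8 CPM (SD, n = 4) in WT, a log2 fold change of -0.55 (SE 0.39, unadjusted p = 0.195, edgeR adjusted p = 0.9998) and a ratio of 0.685 with a 95% interval of 0.370 to 1.27. Without WT 2 the log2 fold change was -0.78 (edgeR, unadjusted p = 0.0205). Without WT 2 and Srp72+/- 1, the libraries with the most mature cell transcripts, it was -0.96 (unadjusted p = 0.0113). WT 2 was the lowest WT value and Srp72+/- 1 the highest Srp72+/- value, so leaving them out had to widen the gap. These 2 p-values are thus no support for a difference. An unadjusted p below 0.05 was reached by 962 of 19856 genes in the first of these fits and by 849 of 21073 in the second. The log2 fold change was smaller without WT 3 (-0.35, unadjusted p = 0.408), and with any 1 library left out it ran from -0.78 to -0.35. None of these passed the adjusted threshold, and the part of the cell content in this difference was not tested.

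Snhg12 measured 42.0, 45.6 and 66.7 CPM in Srp72+/- 1 to 3, against 37.8, 22.0, 64.6 and 50.4 CPM in WT 1 to 4. Srp72+/- 3 and WT 3 were the highest and WT 2 the lowest. The ratio was 1.18 with a 95% interval of 0.652 to 2.13. The coefficients of variation of Snhg12, Snhg6 and Snhg8 were 33.0%, 36.9% and 39.7%, near the median of 32.7% over tested genes of at least 5 CPM.

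**Figure D3:**
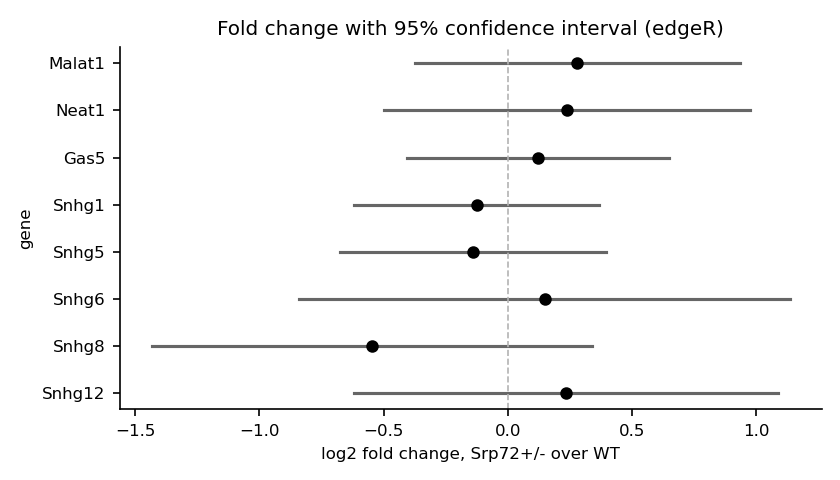
Fitted log2 fold change (Srp72+/- over WT, horizontal axis) of each gene with its 95% confidence interval from edgeR. All 8 intervals include 0, and that of Snhg8, around -0.55, reaches farthest to the lower side.

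**Figure D4:**
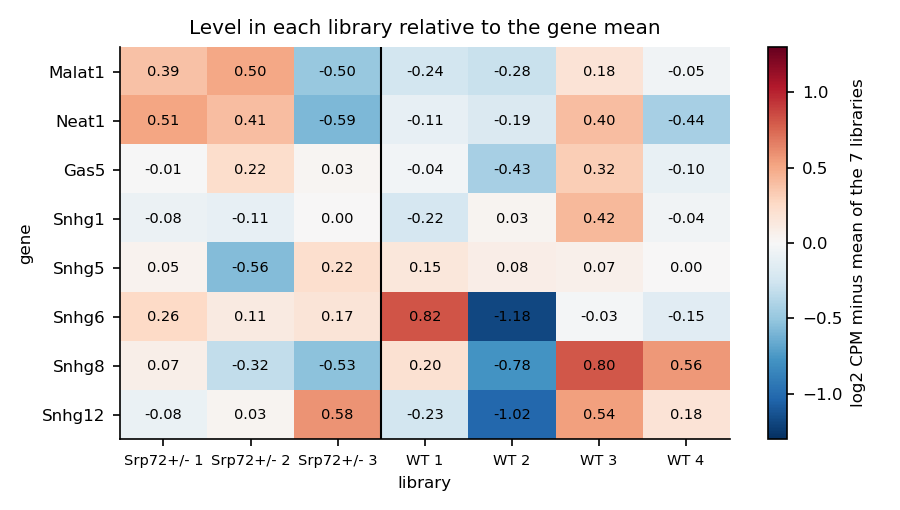
Log2 CPM of each gene minus its mean over the 7 libraries, with Srp72+/- 1 to 3 left of the line and WT 1 to 4 right of it. WT 2 is the lowest library for Gas5, Snhg6, Snhg8 and Snhg12 (-0.43, -1.18, -0.78 and -1.02), and Srp72+/- 3 for Malat1 and Neat1 (-0.50 and -0.59).

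The genes closest to each member in profile differed from member to member. Likeness was measured as Pearson's r of log2 CPM over the 7 libraries, which share depth and cell content, among 11657 other genes, and it is given as a description. The best r, given for every member but Snhg8, was that of A130077B15Rik with Malat1 (0.96), Eme2 with Neat1 (0.97), Dalrd3 with Gas5 (0.99), Klf6 with Snhg1 (0.96), Nmral1 with Snhg5 (0.98), Il7 with Snhg6 (0.98) and Myb with Snhg12 (0.98). Pisd-ps2 and Dcdc2c came next for Malat1, 9030025P20Rik and Gm42664 for Neat1, and 5430416N02Rik and A330035P11Rik for Gas5. Faim and Camta2 came next for Snhg1, Map2k6 and Sf1 for Snhg5, Mdfic and Mfsd4b4 for Snhg6, and Per1 and Pcgf2 for Snhg12. Dcaf11 and Msrb2 were among the 3 genes closest to Snhg8. Myb, a transcription factor gene of blood progenitors, measured 369, 389 and 429.6 CPM in Srp72+/- 1 to 3 and 370.1, 304, 413 and 384 CPM in WT 1 to 4. Like Snhg12, it was highest in Srp72+/- 3 and WT 3 and lowest in WT 2. Every gene named here was picked for its r among 11657 genes over only 7 libraries. A high r and a shared order of libraries thus follow from the choice and are no support for a link.

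Per length Neat1 was mostly the short form, while most of its reads were given to the long form. The short Neat1-202 (3004 bases) made up 76.5%, 73.1% and 82.3% of Neat1 TPM in Srp72+/- 1 to 3, against 77.4%, 78.0%, 69.6% and 83.9% in WT 1 to 4. The long paraspeckle form Neat1-201 (20771 bases) made up 23.3%, 26.3% and 17.4% in Srp72+/- 1 to 3 and 22.6%, 21.7%, 30.4% and 15.9% in WT 1 to 4. Both groups spanned nearly the same range, and the mean share of Neat1-202 was 77.3% in Srp72+/- and 77.2% in WT (two-sided exact permutation test, p = 1; the 35 splits allow no p below 0.0286). Of the estimated reads, Neat1-202 held 29.7%, 26.7% and 38.3% in Srp72+/- 1 to 3, against 30.4%, 31.6%, 22.8% and 40.6% in WT 1 to 4, and nearly all others fell on Neat1-201. The short form has no 31-base word that the other Neat1 transcripts lack, so its share is an estimate from the depth of reads along the gene.

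For Malat1 the full-length Malat1-201 held 94.9% to 98.1% of the estimated reads in Srp72+/- and 94.9% to 98.6% in WT, but only 47.6% to 65.4% and 48.1% to 74.2% of the TPM. The rest fell on 3 spliced forms of 485 to 656 bases that changed places between libraries. Malat1-204 held 21.2% of Malat1 TPM in Srp72+/- 3 and 20.1% in WT 4, and under 1% in the other 5 libraries. The difference in the share of Malat1-201 was -2.81 percentage points (exact permutation test, p = 0.714).

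Isoform use was tested over all 9841 genes with at least 2 tested transcripts, with the F test of edgeR for unequal change among the transcripts of a gene. Gas5 was the 1 member of 8 that passed an FDR of 0.05 (adjusted p = 0.0241), where 0.203% of all genes did, and it did so through a transcript with reads in Srp72+/- only. The other 7 had an adjusted p of 1 in this test.

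The Gas5 call rested on 1 rare transcript, Gas5-211. This transcript of 9 exons and 1066 bases keeps the introns with the snoRNAs Gm22357 and Snord78. Exon 3 is printed, since it is there that Gas5-211 keeps an intron, with Gm22357 in capitals.
Gas5-211 exon 3 (chr1:161035983-161036244, plus strand, GRCm38): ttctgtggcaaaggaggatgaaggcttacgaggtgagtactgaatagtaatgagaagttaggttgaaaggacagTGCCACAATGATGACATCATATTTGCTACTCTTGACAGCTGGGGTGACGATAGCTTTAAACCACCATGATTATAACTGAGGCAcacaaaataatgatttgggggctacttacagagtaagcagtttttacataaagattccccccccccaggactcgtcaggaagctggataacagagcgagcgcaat
It was given 144, 52.4 and 36.9 estimated reads in Srp72+/- 1 to 3 and 0 in each of the 4 WT libraries. That equals 0.679%, 0.175% and 0.0807% of Gas5 TPM in Srp72+/-. The transcript thus passed the filter on low counts through its Srp72+/- reads alone and had to differ, so neither its separation nor the p of the gene is support for a difference. All its values are below 1% of the gene.

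Several measurements limit this call. With Gas5-211 left out, the remaining 17 tested Gas5 transcripts gave an unadjusted p of 0.377 and an adjusted p of 1. The call was also lost when any library but Srp72+/- 3 was left out (adjusted p between 0.057 and 0.309), without WT 2 and Srp72+/- 1 (adjusted p = 0.141) and without the filter on low counts (adjusted p = 0.108). Gas5 has 25 annotated transcripts, of which 20 are typed as retained intron, and 19 of the 25, Gas5-211 among them, have no 31-base word that another Gas5 transcript lacks. Reads were thus divided among them by estimation alone.

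Of 5 other tested Gas5 transcripts that hold Gm22357 or Snord78, 2 had groups that did not overlap and 3 had groups that did. None passed the test. Those 2 were higher in Srp72+/-, where 3.63% of all 11592 tested retained intron transcripts were higher without overlap and 1.43% lower. The 5 were picked by the snoRNAs of the rare transcript above and share reads with it. Their count is thus no separate support for its call. The most abundant of the 5, Gas5-212 with Snord78, overlapped and made up 11.5% ± 3.55 (SD, n = 3) of Gas5 TPM in Srp72+/- and 12.8% ± 3.02 (SD, n = 4) in WT. Gas5-218 (1.205% to 2.62% in Srp72+/- and 1.18% to 1.49% in WT) and Gas5-222 (0.818% to 1.61% and 1.15% to 1.46%) overlapped as well. Gas5-214, which holds Gm22357, made up 5.25%, 3.87% and 3.48% of Gas5 TPM in Srp72+/- 1 to 3, against 1.70%, 2.26%, 2.28% and 1.03% in WT 1 to 4. Gas5-219, which holds Snord78, made up 2.90%, 3.03% and 3.19% in Srp72+/- 1 to 3, against 0.977%, 0.417%, 0.962% and 1.37% in WT 1 to 4. For these 2 the groups did not overlap, with adjusted p-values of 0.99998 in the single-transcript test of edgeR. The most abundant form by TPM, Gas5-221 (403 bases), made up 27.3%, 24.7% and 29.3% in Srp72+/- 1 to 3, against 27.3%, 28.8%, 32.0% and 32.8% in WT 1 to 4. The difference was -3.10 percentage points (exact permutation test, p = 0.257), or -1.89 points without Srp72+/- 2. Of the Gas5 reads Gas5-221 held 11.9% to 16.8% in Srp72+/- and 15.5% to 19.1% in WT. All retained intron transcripts of Gas5 together held 69.3% to 87.7% of its TPM in Srp72+/- and 68.9% to 81.7% in WT, so the sum overlapped.

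Snhg8 showed the same kind of separation in its unspliced form. Snhg8-202, a single exon of 776 bases that contains Snora24, made up 23.2%, 29.0% and 24.1% of Snhg8 TPM in Srp72+/- 1 to 3, against 13.8%, 9.11%, 14.4% and 20.1% in WT 1 to 4. All 3 Srp72+/- values were above all 4 WT values. The spliced lead form Snhg8-201 was at 45.0%, 55.1% and 55.4% in Srp72+/- and 70.4%, 66.6%, 68.7% and 52.2% in WT, a difference of -12.6 percentage points (exact permutation test, p = 0.114), and the isoform test gave Snhg8 an unadjusted p of 0.458.

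Snhg5 and Snhg12 each had 1 such transcript. Snhg5-206, a retained intron form, made up 5.32%, 6.48% and 6.06% of Snhg5 TPM in Srp72+/- 1 to 3, against 4.49%, 4.07%, 2.35% and 2.41% in WT 1 to 4. Snhg12-203, which contains Snora44, made up 12.2%, 12.4% and 17.3% in Srp72+/- 1 to 3, against 7.11%, 3.96%, 3.87% and 9.63% in WT 1 to 4. In both the groups did not overlap, and neither transcript passed the single-transcript test. Snhg12-203 has no 31-base word that the other Snhg12 transcripts lack, so reads were given to it by estimation alone. The lead form Snhg12-202 was at 53.0%, 39.4% and 62.5% in Srp72+/- and 60.7%, 72.1%, 66.3% and 63.1% in WT, which overlapped (difference -13.9 percentage points, exact permutation test, p = 0.0571). Without Srp72+/- 2 this difference was -7.78 points (p = 0.2, where the 15 splits allow no exact permutation p below 0.0667).

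Across the members, 6 of 56 tested transcripts had a share of their gene that was higher in every Srp72+/- library than in every WT library, where 2.99% of 41234 tested transcripts of all genes did. The reverse held for 1 transcript, Gas5-220 (0.0632% to 0.113% in Srp72+/- and 0.152% to 0.240% in WT), where 2.47% of all did. Among the 28 tested retained intron transcripts of the members the counts were 5 higher and 1 lower, where 3.63% and 1.43% of all 11592 such transcripts did. With Gas5-211 left out, since its separation was fixed by the filter, the counts were 5 higher and 1 lower of 55 tested transcripts, and 4 higher and 1 lower of 27 retained intron transcripts. The shares over all genes were not recomputed without transcripts of this kind, so these last counts have no like share beside them. Transcripts of a gene share reads, so these counts are not of independent items, and 3 of the 6 higher ones belong to Gas5.

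**Figure D5:**
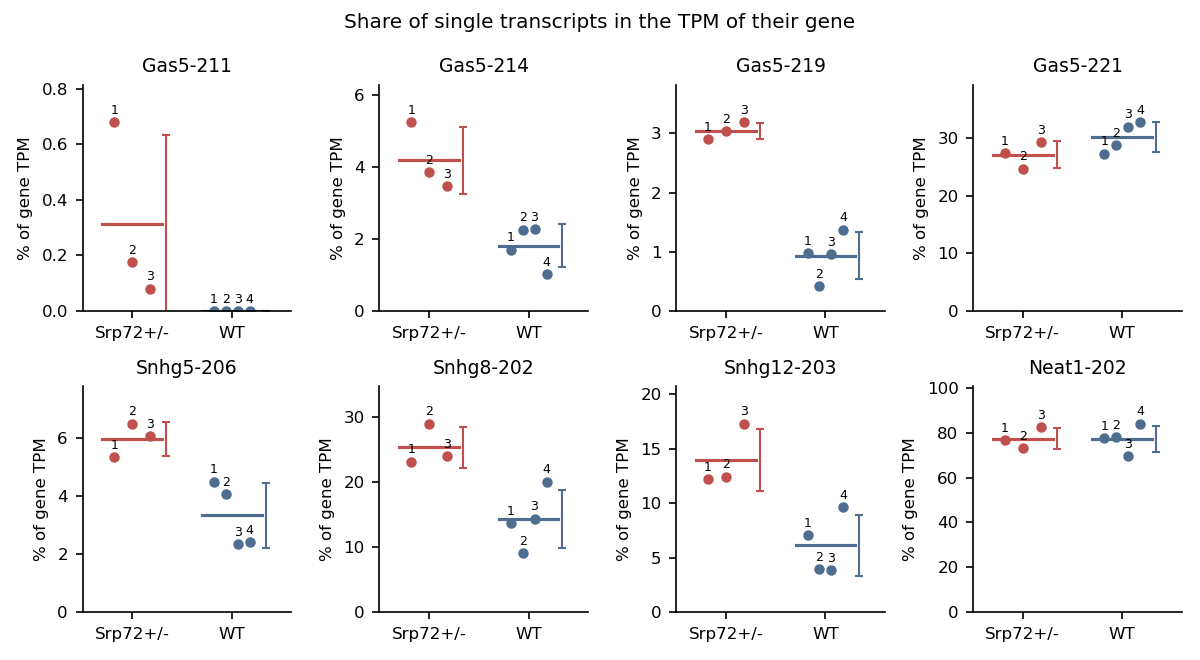
Share of single transcripts in the TPM of their gene (percent), with Srp72+/- left and WT right; points are libraries with their replicate number, lines are means and bars are SD (n = 3 and n = 4; the bar of Gas5-211 is cut at 0). The groups do not overlap for Gas5-211, Gas5-214, Gas5-219, Snhg5-206, Snhg8-202 and Snhg12-203, while Gas5-221 and Neat1-202 overlap.

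The lead transcripts of the remaining hosts overlapped between the genotypes. Snhg5-203 held 67.3% to 77.3% of Snhg5 TPM in Srp72+/- and 67.3% to 81.7% in WT, and Snhg1-209, a retained intron form, 18.8% to 31.3% and 15.9% to 23.6% of Snhg1 TPM. Snhg1-209 is 312 bases long and leads by TPM only. Of the Snhg1 reads it held 3.83% to 6.97% in Srp72+/- and 3.25% to 5.62% in WT. Snhg6-202 held 31.8%, 43.5% and 48.4% in Srp72+/- 1 to 3, against 38.7%, 0%, 28.3% and 6.12% in WT 1 to 4. The lowest of these were WT 2 and WT 4, and the difference of 22.9 percentage points was within the spread (exact permutation test, p = 0.143). Snhg6-202 has no 31-base word that the other Snhg6 transcripts lack, and Snhg6 held only 133 estimated reads in WT 2. Retained intron forms made up 47.0% to 70.6% of Snhg1 TPM in Srp72+/- and 48.6% to 72.8% in WT.

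Of 15 further snoRNA host lncRNAs, 13 were in the tables and tested, 0 passed the FDR of 0.05, and 5 had higher and 8 lower fitted values, with a median log2 fold change of -0.20 beside -0.01 over all genes. Their mean levels were at most 58.4 CPM (Zfas1), which is below Gas5, Snhg1 and Snhg5 and above Snhg12, Snhg8 and Snhg6. The lowest unadjusted p was that of 1810032O08Rik, the annotated name matched to Snhg16, with 11.4, 9.91 and 8.40 CPM in Srp72+/- 1 to 3, against 14.6, 12.7, 24.0 and 22.5 CPM in WT 1 to 4. Its groups did not overlap, and the log2 fold change was -0.90 (SE 0.34, unadjusted p = 0.0301, edgeR adjusted p = 0.9998). Next came Snhg20 (11.0 ± 3.80 CPM in Srp72+/-, n = 3, and 6.29 ± 2.09 CPM in WT, n = 4; SD) and Zfas1 (51.6 ± 8.13 and 63.4 ± 8.09 CPM), neither of which passed.

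Of 13 further nuclear lncRNAs, 12 were tested and 0 passed, with 7 fitted higher and 5 lower and a median of 0.08. Xist, which coats the inactive X chromosome, measured 4415, 5728 and 5139 CPM in Srp72+/- 1 to 3, against 4714, 2486, 5409 and 3815 CPM in WT 1 to 4. It was thus of the order of Malat1, with WT 2 the lowest library. Meg3, an imprinted lncRNA of HSCs, measured 10.3, 11.7 and 9.49 CPM in Srp72+/- 1 to 3, against 8.01, 0.703, 49.7 and 30.4 CPM in WT 1 to 4, and Mirg of the same cluster was at 1.45 ± 0.854 CPM (SD, n = 3) in Srp72+/- and 0.495 ± 0.762 CPM (SD, n = 4) in WT. In all 3 the groups overlapped.

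The genes of the proteins that work with these RNAs did not pass the test either. Of 18 snoRNP genes tested, 0 passed, 12 were fitted higher and 6 lower, and the median was 0.02. Nop56, a core protein of box C/D snoRNPs, measured 107, 122 and 169 CPM in Srp72+/- 1 to 3, against 89.8, 90.6, 125 and 76.2 CPM in WT 1 to 4, with only WT 3 inside the Srp72+/- range. Naf1, an assembly factor of box H/ACA snoRNPs, was at 11.5, 10.5 and 13.5 CPM in Srp72+/- 1 to 3, against 25.1, 23.0, 12.4 and 18.03 CPM in WT 1 to 4, and Znhit6, an assembly factor of box C/D snoRNPs, at 21.9 ± 5.01 and 15.1 ± 3.10 CPM.

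Of 15 paraspeckle protein genes 0 passed, with 7 fitted higher and 8 lower and a median of -0.03, and the lowest unadjusted p-values were those of Dazap1 (log2 fold change 0.54), Taf15 (-0.35) and Smarca4 (0.28). Of 17 nuclear speckle genes 0 passed, with 6 higher and 11 lower and a median of -0.02, led by Srsf11 (0.20), Srrm2 (0.25) and Srsf6 (-0.20). Of 16 genes of nonsense-mediated decay, the pathway that removes several spliced hosts, 0 passed, with 4 higher and 12 lower and a median of -0.15. Smg5, which takes part in the dephosphorylation of UPF1, measured 62.7, 45.2 and 59.3 CPM in Srp72+/- 1 to 3, against 33.1, 48.9, 30.7 and 23.4 CPM in WT 1 to 4. WT 2 alone lay inside the Srp72+/- range, and the log2 fold change was 0.71 (SE 0.29, unadjusted p = 0.0388, edgeR adjusted p = 0.9998). Upf3a (-0.48) and Smg8 (-0.53) came next.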

How the data were processed

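RNA of 7 mice (3 Srp72+/-, 4 WT) was amplified (NuGEN Ovation RNA-seq V2) and turned into TruSeq V2 libraries, per the labels' protocols. The deposited tables hold estimated counts (expected counts) and TPM per transcript, made with Salmon 0.12.0 per the submitters' processing notes, which also name mm10 and GRCm38.p6. The other deposited columns, lengths and effective lengths, were made by the authors' tool and served for the length offset. Strand, bias options and the transcript release are not stated there. Reads were amplified and carry no molecular identifiers, so limits based on reads cover counting error only.

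Of 136288 transcripts, 136176 matched GENCODE M21 and 112 did not. Estimated counts were summed per gene and rounded. Genes were filtered (filterByExpr, minimum count 10, minimum total 15), scaled by TMM and compared with edgeR 4.0.16 (quasi-likelihood, robust, no covariate, Benjamini-Hochberg over 20314 genes, FDR 0.05) in R 4.3.3. Isoform use was tested on transcript counts with diffSpliceDGE, and lead shares by two-sided exact permutation over 35 splits. On simulated data the share of isoform calls that fell on unchanged genes was above the FDR used, so isoform calls over all genes serve only as background. Log2 CPM used a prior count of 2.

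Alternatives were RLE scaling, no or a stricter filter, no mitochondrial transcripts, a length offset, DESeq2 1.42.0, limma 3.58.1 on log2(TPM + 1), the replicate block, the Simes test, shares of reads, and each library left out. Leaving out WT 2 with Srp72+/- 1, summing the genes inside Malat1 and dropping Gas5-211 were added after seeing the data. The members and lists were chosen with earlier results of these data known. Named were all members, the 3 genes of each list with the smallest p, and the 3 genes most like each member (mean of at least 5 CPM). Some genes that these rules and the marker lists name are not reported here. RefSeq start sequences (GRCm38.p6) were matched by symbol for 6 of 8 members.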

Additional observations from a re-analysis of the deposited data

How the results depend on the processing

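Over the alternatives, 0 of 8 members passed the threshold for a difference in level. Genes called numbered 9 with DESeq2 and 0 to 1 with single libraries left out (1 without WT 4). Signs turned for Gas5 with the length offset (-0.0121), Snhg1 with limma on log2(TPM + 1) (0.13), and Neat1 (-0.000208) and Snhg6 (-0.14) without WT 2 and Srp72+/- 1. With 1 library left out, log2 fold changes ran from -0.10 to 0.55 for Snhg6, -0.31 to 0.040 for Snhg5 and -0.0050 to 0.47 for Snhg12. The limma fit on TPM moved the median of all genes to 0.13, and list medians to 0.21 (paraspeckle), 0.22 (nuclear speckle) and 0.0743 (nonsense-mediated decay). The nuclear speckle median was -0.14 with the replicate block and -0.16 to -0.015 with 1 library left out, and the snoRNP median ran from -0.37 to 0.20.

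Isoform calls over all genes numbered 35 with the Simes test, 0 with the replicate block, 19 to 55 with 1 library left out and 66 without WT 2 and Srp72+/- 1. The adjusted p of Gas5 was 0.108 without the filter, 0.774 with the replicate block, 0.141 without WT 2 and Srp72+/- 1, 1 without Gas5-211 and 0.000638 to 0.309 with 1 library left out, and it passed with the stricter filter (0.00279), RLE scaling (0.0213) and the Simes test (0.0176). Lead shares without 1 library changed sign for Malat1-201 (-7.36 to 2.20 points), Neat1-202 (-2.46 to 2.32) and Snhg1-209 (-0.683 to 5.55). Whether replicate numbers pair the mice could not be settled. Deviations of same-numbered libraries correlated at -0.316, -0.162 and 0.00177, and no library correlated best with its own number. This check cannot exclude pairing, since the libraries also differed in cell content, so values with the block serve as an alternative only. In 212 further recomputations the value kept its direction and its side of the threshold or stayed within 1.5 times a count. Among these are lead shares with 1 library left out, for which the splits allow no exact permutation p below 0.0667. Their side of the threshold was thus fixed, and only their direction could change. List medians moved by less than 1 SD between libraries (of the list's mean log2 CPM) in 107 more, and in 13 of these they changed sign, so their signs are not stable. The median of the members ran from -0.042 to 0.18 with 1 library left out. Apart from Gas5-211 and the changes in library number, the cause was not tested. With 3 and 4 libraries the interval of a ratio was as wide as 0.559 to 2.20 (Snhg6), and differences inside such intervals were not detectable here.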
